A study of Mus musculus with 12 samples.

Results

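The heat shock chaperones described here are 10 genes, Hspa1a, Hspa1b, Hspa8, Hspa5, Hsph1, Hspa4, Hsp90aa1, Hsp90ab1, Dnajb1 and Hspb1, chosen by gene name from the 55678 gene names of an RNA sequencing table. All 10 reached 1 TPM (an abundance corrected for transcript length and scaled to the same total in each library) in at least 3 libraries and were among the 16423 genes tested. The libraries came from the medial prefrontal cortex of 12 mice, taken with a 1.5 mm tissue punch after behavioural testing. The mice were 9 to 10 weeks old and belonged to the strains BALB/cCrSlc, called BALB/c here, and C57BL/6JmsSlc, called B6, both inbred. In each strain, 3 mice underwent chronic restraint stress (CRS), in which a mouse was held in a restrainer for 6 h on each of 21 days in a row, and 3 control mice were handled without restraint. The B6 controls were animals 2, 3 and 9, the B6 CRS mice were 12, 13 and 14, the BALB/c controls were 5, 9 and 10, and the BALB/c CRS mice were 12, 13 and 15. The labels give no sex, litter or batch, and name no allele or agent beyond these. The design asks whether CRS changed these genes, whether the strains differed, and whether the effect of CRS differed between strains.

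Chaperones bind unfolded protein and help it fold or pass it on for degradation. Hsp70 proteins hold short stretches of a client in a cycle driven by ATP; J proteins such as Dnajb1 start that cycle, Hsp110 proteins such as Hsph1 and Hspa4 end it by exchanging the nucleotide, and Hsp90 proteins act later on kinases, steroid receptors and other clients. Neurons depend on constitutive forms such as Hspa8, which also strips clathrin from synaptic vesicles, whereas Hspa1a and Hspa1b are low at rest and are induced by heat shock factor 1. Hspa5, also called BiP, is the Hsp70 of the endoplasmic reticulum (ER) and a target of the unfolded protein response.

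As a measure of the tissue, cortical excitatory neuron markers (Slc17a7, Camk2a, Neurod6 and Tbr1) summed to 1184 to 2443 TPM per library and none was at 0. Markers of other cells differed between the strains. The 6 oligodendrocyte markers summed to 2399 to 9223 TPM in B6 and to 461 to 2949 TPM in BALB/c, and the 8 striatal neuron markers to 217 to 2830 TPM in B6 and 118 to 395 TPM in BALB/c. The striatal sums of controls and CRS mice overlapped in both strains. They were at 217 to 2830 TPM in B6 controls and 979 to 2304 TPM in B6 CRS mice. In BALB/c they were at 118 to 395 TPM and 139 to 184 TPM. After CRS, 8 of 8 striatal markers had a log2 change above 0 in B6 (median 1.21) and 7 of 8 one below 0 in BALB/c (median -0.42). The 4 excitatory markers were all below 0 in B6 (median -0.37), as were 2 of 4 in BALB/c (median -0.04), and 0 of these markers were called after CRS. The library of BALB/c CRS mouse 12 stood apart: 18S ribosomal RNA took 3.97% of its TPM against 0.031% to 0.169% in the other 11. Because the tissue is a mixture of cells, fewer cells of a type and less RNA per cell cannot be told apart in any value below.

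Sequence comes first for Hspa8, since its call between strains was lost once near-identical copies were counted with it. Hspa8 lies on chromosome 9 (GENCODE M21 on GRCm38, positions 40800984 to 40810087, plus strand). The annotation lists a processed pseudogene, Gm15459, on chromosome 5 (5781615 to 5783555, minus strand), and its 1941 bases equal the whole Hspa8 coding sequence at 1936 positions, an identity of 99.742% with no gap. The open frame of the reference copy also runs for 646 codons before its stop. The 5 differing positions, counted from the A of the Hspa8 start codon, are G114A, C414T, C549T, G1222A and C1440T, with the Hspa8 base first. They are printed because these bases alone separate the copies within the coding sequence, and capitals mark them in 41 bases of GENCODE M21 sequence.
Hspa8, 94 to 134: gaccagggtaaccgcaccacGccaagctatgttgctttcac
Gm15459, 94 to 134: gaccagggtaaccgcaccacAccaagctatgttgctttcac
Hspa8, 394 to 434: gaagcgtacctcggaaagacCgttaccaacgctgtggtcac
Gm15459, 394 to 434: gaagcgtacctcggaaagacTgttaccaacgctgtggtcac
Hspa8, 529 to 569: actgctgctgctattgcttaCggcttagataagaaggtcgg
Gm15459, 529 to 569: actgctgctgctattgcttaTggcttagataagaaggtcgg
Hspa8, 1202 to 1242: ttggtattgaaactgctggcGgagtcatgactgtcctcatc
Gm15459, 1202 to 1242: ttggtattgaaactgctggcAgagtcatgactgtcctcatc
Hspa8, 1420 to 1460: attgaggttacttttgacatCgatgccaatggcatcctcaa
Gm15459, 1420 to 1460: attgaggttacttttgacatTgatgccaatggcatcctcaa

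The same question of near copies applies to Hspa1a and Hspa1b, neighbours on the minus strand of chromosome 17 (34969190 to 34972156 and 34956436 to 34959238). Their coding sequences are 99.43% identical, with 8 substitutions and a gap of 3 bases. The most different stretch is shown because it holds the gap, whose bases are capitals in Hspa1b only, together with the substitutions C1881G and G1884A (Hspa1a base first, counted from its start codon), also in capitals.
Hspa1a: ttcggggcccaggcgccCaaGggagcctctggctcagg
Hspa1b: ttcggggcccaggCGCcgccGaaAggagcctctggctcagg
The other family members are far less alike, at 75.486% between the coding sequences of Hsp90aa1 and Hsp90ab1, 73.776% between Hspa8 and Hspa1a, 64.353% between Hspa4 and Hsph1 and 62.36% between Hspa8 and Hspa5. Leaving aside a single chromosome whose matches are not reported here, a gene of near-identical sequence was found for 6 of the 10 members. None was found for Hspa5, Hsph1, Dnajb1 and Hspa4. Hspa5 lies on chromosome 2 (34771970 to 34777547, plus strand), Hsph1 on 5 (149614287 to 149636376, minus), Hspa4 on 11 (53259814 to 53300457, minus), Dnajb1 on 8 (83608193 to 83612653, plus) and Hspb1 on 5 (135887919 to 135889563, plus). Hsp90aa1 lies on chromosome 12 (110690605 to 110702728, minus) and Hsp90ab1 on 17 (45567775 to 45573271, minus).

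The 10 genes covered more than 2 orders of magnitude in level. Over all 12 libraries, Hspa8 had a mean of 1312 TPM (rank 36 of 16423 genes), Hsp90ab1 1102 TPM (rank 43) and Hsp90aa1 945 TPM (rank 67). The ranges of these 3 genes over the libraries overlapped, and their order rests on a mean pooled over the strains. In BALB/c, Hsp90ab1, at 1096 TPM in controls and 1114 TPM after CRS, was above Hspa8 under its own name, at 1009.6 and 970.2 TPM, and Hsp90aa1 in controls, at 1019 TPM, was too. A middle group held the Hsp110 gene Hsph1 at 181 TPM and Hspa5 at 166 TPM, whose ranges also overlapped, and Hspa4 at 94.0 TPM, whose range of 72.7 to 117 TPM lay below that of both. Dnajb1 followed at 32.1 TPM, apart from its neighbours in every library. The small heat shock protein gene Hspb1 stood at 10.5 TPM, and the inducible Hsp70 genes were lowest, Hspa1a at 6.89 TPM (rank 10205) and Hspa1b at 6.62 TPM (rank 10326). The ranges of these last 3 overlapped. Together the members took 0.319% to 0.476% of all TPM in a library, with BALB/c CRS mouse 12 lowest and B6 control 9 highest. The spread within groups was 6.94% of the mean for Hsp90ab1, the least of the 10, and 43.7% for Hspa1b, the most.

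**Figure D1:**
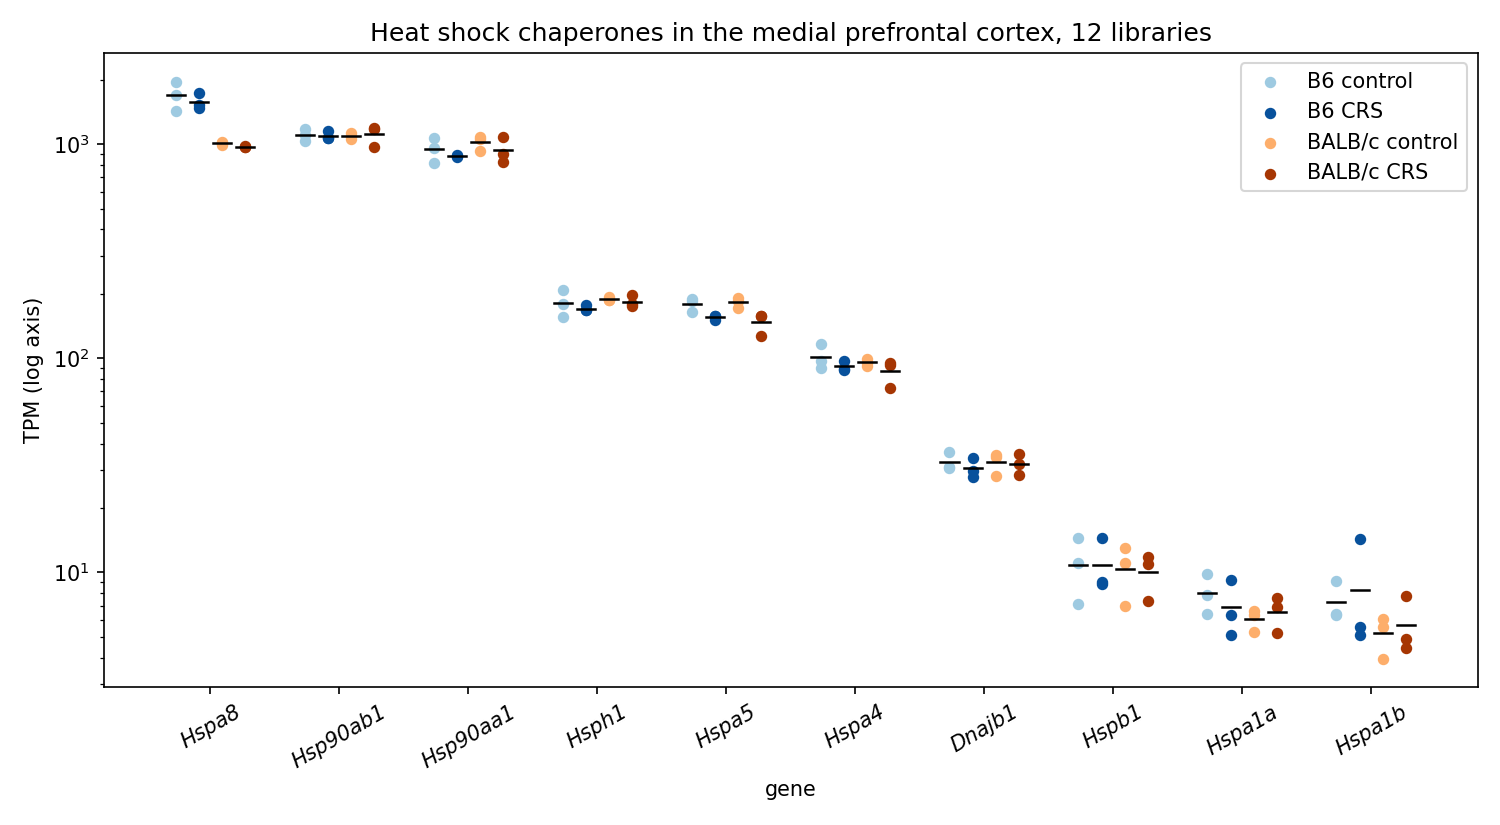
TPM of each chaperone gene (log axis) in the 12 libraries, with 3 points per group and a black line at the group mean. Hspa8 and the Hsp90 genes have means of 945 TPM and more, Hspa1a, Hspa1b and Hspb1 of 10.5 TPM and less, and Hspa8 is the only gene whose B6 and BALB/c points part in both conditions.

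None of the 10 members was called after CRS. In limma's test with Benjamini-Hochberg adjustment over all genes, 0 of 10 were called in B6, where 0% of all tested genes were called, and 0 of 10 in BALB/c, where 0.00609% were. For the CRS effect averaged over strains 0 of 10 were called (0.00609% of all genes), and for the difference between the strains in the CRS effect 0 of 10 (0% of all genes). At an unadjusted p under 0.05, no member passed in B6 (4.82% of all genes did), 1 member, Hspa5, in BALB/c (3.03%) and Hspa5 again in the average (5.17%). The log2 change was below 0 for 8 of 10 members in B6 (49.7% of all genes), for 7 in BALB/c (37.4%) and for 8 in the average (42%). Without BALB/c CRS mouse 12, the BALB/c count was 5 of 10, where 23.5% of all genes were below 0. All changes are on the scale log2(TPM + 1), which understates those of low genes.

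**Figure D2:**
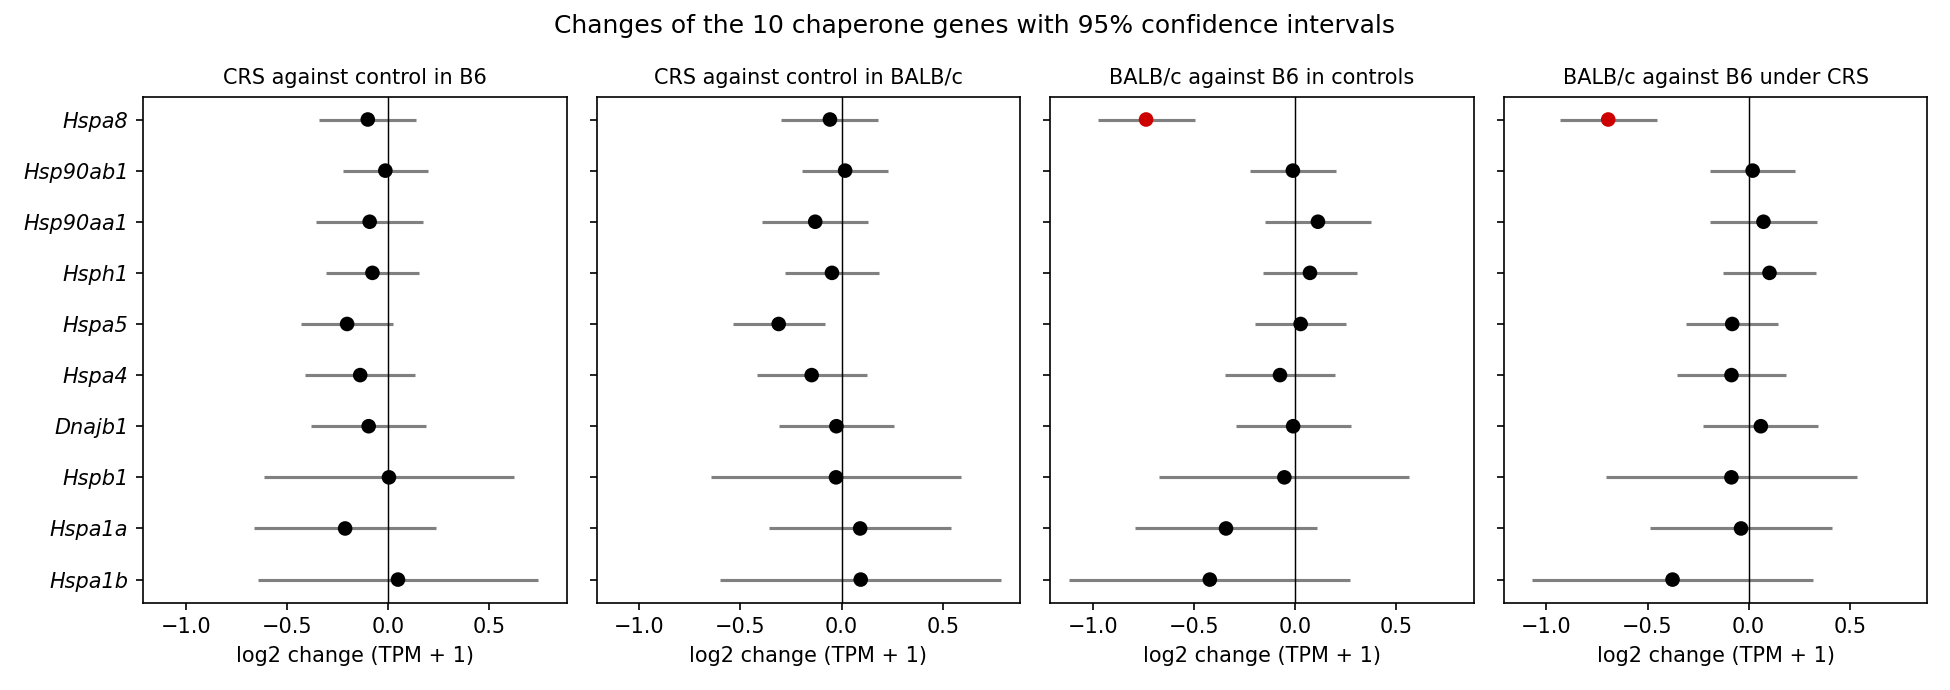
Log2 change of TPM + 1 for each chaperone gene in 4 comparisons, with 95% confidence intervals from limma; red marks an adjusted p under 0.05. The intervals include 0 throughout, apart from Hspa8 between the strains and, before adjustment over all genes, Hspa5 after CRS in BALB/c.

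The inducible Hsp70 genes showed no call in any comparison. Hspa1a was at 6.42, 9.80 and 7.85 TPM in the B6 controls and at 5.13, 6.31 and 9.20 TPM after CRS. BALB/c controls held 6.33, 5.28 and 6.58 TPM and stressed BALB/c mice 5.22, 7.58 and 6.92 TPM. The groups overlapped in both strains, and the 95% intervals of the log2 change after CRS were -0.66 to 0.24 in B6 and -0.36 to 0.54 in BALB/c. Hspa1b was at 6.35, 9.11 and 6.43 TPM in the B6 controls and at 5.09, 5.58 and 14.3 TPM after CRS, so that 1 of the 3 stressed B6 mice, mouse 14, lay above all controls and the other 2 below them. The BALB/c values were 6.05, 3.96 and 5.56 TPM without and 4.45, 4.88 and 7.73 TPM with CRS. The BALB/c controls all lay below the B6 controls for Hspa1b, as did 18.7% of all genes, and the difference of -0.42 (SE 0.32) was not called (adjusted p = 0.528, limma). Both genes, which their sequence makes hard to separate, were summed together with Gm20481, which overlaps Hspa1a on the opposite strand. The sum was 15.3 ± 3.20 TPM (SD, n = 3) in B6 controls, 15.2 ± 7.22 in B6 CRS, 11.3 ± 1.82 in BALB/c controls and 12.6 ± 2.97 in BALB/c CRS. Gm20481 did not exceed 0.965 TPM in any library.

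Hspa8, the constitutive Hsp70 of the cytosol, was the 1 member called between strains, and this call was lost once its near-identical copies were counted with it. Under its own name Hspa8 was at 1433, 1703 and 1952 TPM in the B6 controls and at 1519, 1474 and 1729 TPM in B6 CRS mice. In BALB/c it was at 993, 1016 and 1019 TPM in controls and at 967, 976 and 968 TPM after CRS. Every BALB/c library lay below every B6 library, a pattern that 18.7% of all genes had in controls and 20% under CRS. The log2 change of BALB/c against B6 was -0.74 (SE 0.11, adjusted p = 0.00163, limma) in controls, where 4.73% of all genes were called and 3.37% were called lower. Under CRS it was -0.69 (SE 0.11, adjusted p = 0.00254), where 7.7% were called and 5.33% called lower. With a score of oligodendrocyte (myelin) markers in the model it was -0.90 and -0.87, and with a score of striatal markers -0.90 and -1.03.

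Gm15459 ran the other way. It was at 1.95, 3.18 and 1.78 TPM in the B6 controls and at 3.66, 3.68 and 2.32 TPM in B6 CRS mice. BALB/c controls held 721, 745 and 735 TPM and stressed BALB/c mice 601, 777 and 733 TPM. The log2 change was 7.82 (SE 0.17, adjusted p = 1.69e-11, limma) in controls and 7.39 (SE 0.17, adjusted p = 3.01e-11) under CRS. Hspa8 made up 99.8% to 99.9% of the sum of both names in every B6 library and 55.7% to 61.7% in the BALB/c libraries. That sum was 1698 ± 259.7 TPM (SD, n = 3) in B6 controls, 1577 ± 135 in B6 CRS, 1743 ± 25.4 in BALB/c controls and 1674 ± 95.1 in BALB/c CRS.

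Leaving aside a single chromosome whose matches are not reported here, the annotation holds 13 genes with at least 90% identity to the Hspa8 transcript. The identity runs over 300 bases or more, and 12 of these genes are in the table. Apart from Gm15459, none of the 12 exceeded 1.70 TPM in any library. With all 12 added to Hspa8, the log2 change of BALB/c against B6 was 0.05 (SE 0.11, adjusted p = 0.866, limma) in controls and 0.09 (SE 0.11, adjusted p = 0.694) under CRS. The 95% interval in controls, -0.20 to 0.30, excludes the difference found under the gene's own name. Whether the counts under Gm15459 in BALB/c come from Hspa8 RNA or from an expressed copy was not tested, because the table holds no reads. The mouse reference genome is that of C57BL/6J, so the reference copies are those of a B6 strain.

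**Figure D3:**
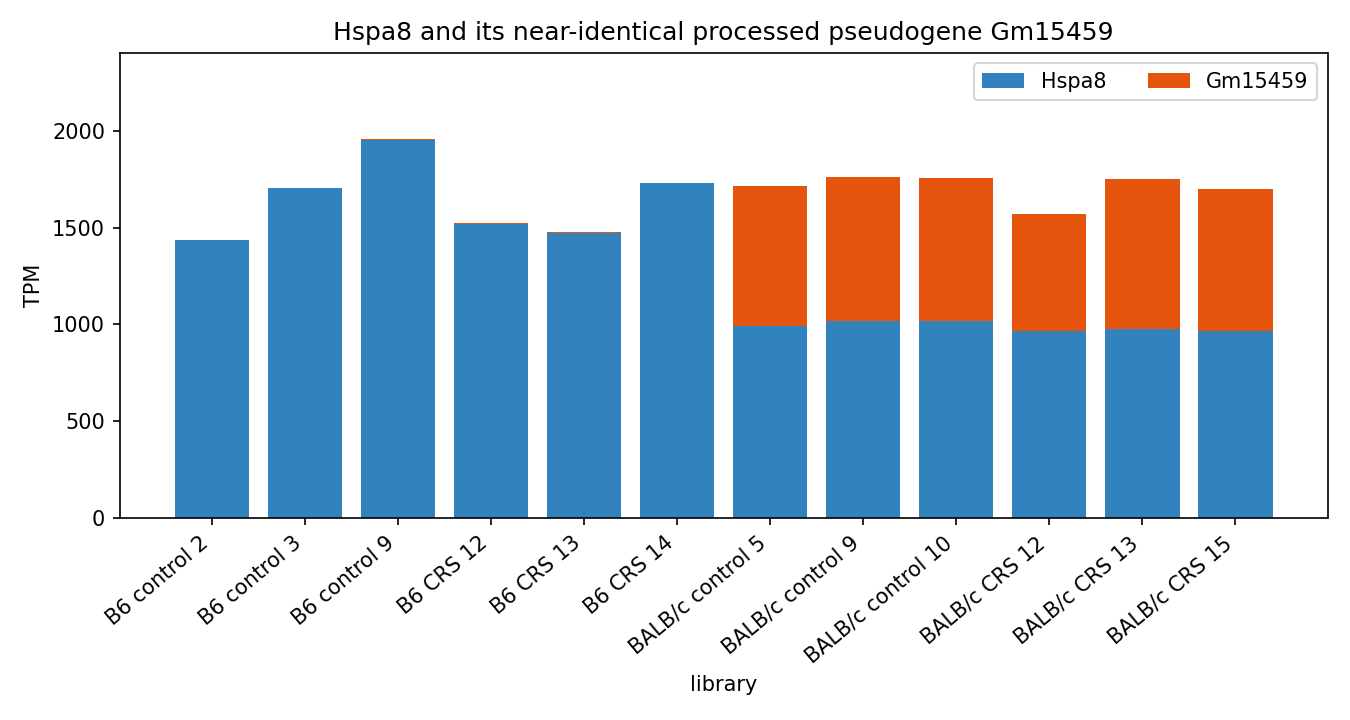
Stacked TPM of Hspa8 (blue) and its processed pseudogene Gm15459 (orange) in each library. Bars reach 1435 to 1954 TPM in B6 and 1568 to 1761 TPM in BALB/c, with Gm15459 at 601 TPM or more in BALB/c and at 3.68 TPM or less in B6.

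The split also ran through the rows of Hspa8. The table lists Hspa8 on 10 rows, apparently 1 per transcript. The rows carry no transcript names, so they are numbered in the order of the table. Row 1 lay at 947 to 1248 TPM in B6 and 152 to 265 TPM in BALB/c. Row 6 lay at 214 to 361 TPM in B6 and 0 to 0.514 TPM in BALB/c. Row 7 went the other way, from 207 to 330 TPM in B6 to 631 to 700 TPM in BALB/c, as did row 3, from 3.51 to 17.0 TPM to 74.3 to 130 TPM. In a limma fit over all 46000 rows of at least 1 TPM in 3 libraries, rows 1, 3, 6 and 7 were called in both conditions and row 8 in controls, where 1.69% of rows were called (2.08% under CRS). The log2 changes in controls were -2.31 for row 1, 3.84 for row 3, -8.11 for row 6, 1.37 for row 7 and -1.54 for row 8. Among the 44 rows of members that were tested, the only other row called was row 3 of Hsp90ab1, a minor row at 3.16 to 7.80 TPM in B6 and 0 to 0.768 TPM in BALB/c (-1.84 in controls, adjusted p = 0.0182, and -2.24 under CRS, adjusted p = 0.0055).

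After CRS, Hspa8 under its own name lay below the controls in all 3 BALB/c mice, by -0.06 (SE 0.11) on the log2 scale. Its B6 groups overlapped. In BALB/c, 2.02% of all genes had the stressed mice wholly below the controls. The difference was not called (adjusted p = 1.00, limma). With Gm15459 added to Hspa8, the BALB/c groups overlapped. The sum was at 1714, 1761 and 1754 TPM in controls and at 1568, 1752 and 1701 TPM after CRS.

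Hspa5, the ER Hsp70, was lower in every stressed mouse than in any control of its strain, without passing the adjusted test. In B6 it was at 164, 184 and 189.8 TPM in controls and at 157, 151 and 158 TPM after CRS. The BALB/c values were 191, 171 and 186 TPM without and 127, 158 and 157 TPM with CRS. Neither strain's groups overlapped. The log2 change was -0.20 (SE 0.10) in B6 and -0.31 (SE 0.10) in BALB/c, and -0.26 (SE 0.073) averaged over strains, with a 95% interval of -0.42 to -0.10. The unadjusted limma p was 0.0113 in BALB/c, 0.0759 in B6 and 0.0045 for the averaged effect, and the adjusted p was 1.00, 1.00 and 0.946. In B6 3.7% of all genes had the stressed mice wholly below the controls, and 0.189% of all genes, 31 of them, did so in both strains. The difference between the strains in the CRS effect was -0.11 (SE 0.15, adjusted p = 1.00).

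BALB/c CRS mouse 12, the library with the high 18S share, had the lowest Hspa5 value. Without it the BALB/c change was -0.21, and the groups of both strains still did not overlap. They also did not overlap after median-of-ratios scaling, where 0.47% of all genes were wholly lower in both strains, or after rescaling without mitochondrial genes, Bc1 and 18S rRNA, where 0.324% were. Most Hspa5 signal lay on row 2, which held 79.8% of the gene. It was at 132, 148 and 156 TPM in B6 controls against 120, 116 and 125 TPM after CRS, and at 152, 139 and 151 TPM in BALB/c controls against 105, 126 and 124 TPM. Its averaged log2 change was -0.29 (SE 0.068, adjusted p = 0.76, limma). Row 3, at 16.0% of the gene, did not share this: its B6 CRS mice all lay above the B6 controls (0.23, SE 0.16), while in BALB/c it changed by -0.31 (SE 0.16) with overlapping groups. Neither change was called.

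A list of 24 other ER chaperone and unfolded protein response genes had 0 members called after CRS in either strain or in the average. Their log2 change was below 0 for 21 of 24 in B6, 18 of 24 in BALB/c and 21 of 24 in the average, against 49.7%, 37.4% and 42% of all genes. The median change was -0.11 in B6 and -0.09 in BALB/c, where the median over all genes was 0 and 0.05. The striatal and excitatory markers given above had median log2 changes after CRS of 1.21 and -0.37 in B6. None of these markers was called, and their part in these counts was not tested. Hsp90b1, the Hsp90 of the ER, and Manf, a secreted ER stress factor, were the 2 genes of the list whose CRS groups lay below the controls in both strains, as did 0.189% of all genes. Hsp90b1 was at 213 to 240.2 TPM in the B6 controls and 196 to 211 TPM after CRS, and at 212 to 224 and 178 to 205 TPM in BALB/c. Manf was at 94.5 to 105 and 86.4 to 90.2 TPM in B6 and at 83.8 to 93.7 and 65.8 to 82.6 TPM in BALB/c. Leaving out mouse 12 lowered the BALB/c count to 11 of 24, with a median change of 0.02. It also lowered the share of all genes below 0, from 37.4% to 23.5%, so both moved with this library. The median over all genes without it is not given here. Under median-of-ratios scaling the genes wholly lower in both strains were Hsp90b1 and Calr, a calcium-binding lectin chaperone (0.47% of all genes), and 22 of 24 were below 0 in BALB/c, against 52.2% of all genes.

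**Figure D4:**
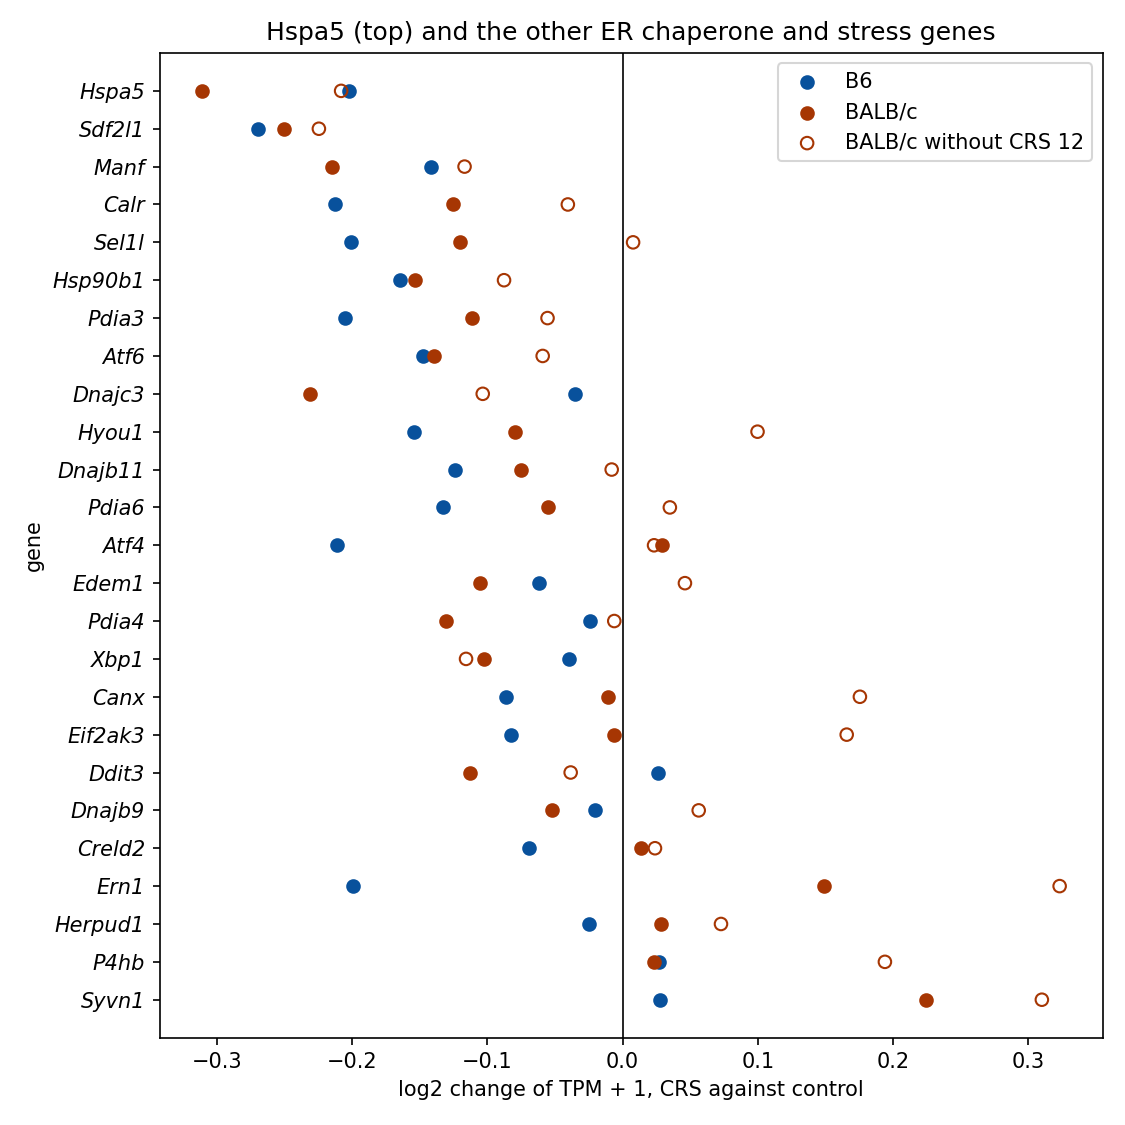
Log2 change of TPM + 1 after CRS for Hspa5 (top) and the 24 listed ER genes, in B6 (blue), in BALB/c (filled brown) and in BALB/c without CRS mouse 12 (open). Hspa5 lies at -0.20 in B6 and -0.31 in BALB/c, and leaving out mouse 12 moves most open circles to the right.

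The Hsp110 genes, the nucleotide exchange factors of Hsp70, were not called in any comparison. Hsph1 was at 155, 180 and 209 TPM in the B6 controls and 168, 168 and 177 TPM in B6 CRS mice. In BALB/c it was at 194, 187 and 188 TPM in controls and 175, 197 and 178 TPM after CRS. The groups overlapped in each comparison, and the 95% intervals of its log2 change after CRS were -0.31 to 0.15 in B6 and -0.28 to 0.18 in BALB/c. Hspa4 was at 90.4, 97.1 and 117 TPM in the B6 controls and 88.6, 89.1 and 97.5 TPM after CRS. BALB/c controls held 99.6, 95.5 and 92.4 TPM and stressed BALB/c mice 72.7, 95.2 and 93.2 TPM, where mouse 12 was lowest. Its groups overlapped within each strain, and its averaged CRS effect was -0.14 (SE 0.088, adjusted p = 0.96, limma). After either rescaling of the libraries, its stressed mice all lay below the controls in both strains, as did 0.47% of all genes after median-of-ratios scaling and 0.324% after the other, again without a call.

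A minor row of Hspa4 differed more than the gene. Row 2, which held 8.40% of the gene, was at 11.7, 8.40 and 12.8 TPM in the B6 controls and at 3.27, 6.83 and 3.59 TPM after CRS. The BALB/c values were 10.9, 14.6 and 8.44 TPM without and 2.58, 6.24 and 5.53 TPM with CRS. Every stressed mouse lay below every control, and 0.178% of all rows had this pattern within both strains. The averaged log2 change was -1.13 (SE 0.23) and did not pass adjustment over the rows (limma, adjusted p = 0.54), where 0.00435% of rows were called. Row 1, with 90.1% of the gene, changed by -0.04 (SE 0.088).

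The Hsp90 genes of the cytosol, Hsp90aa1 (the stress-responsive alpha form) and Hsp90ab1 (the constitutive beta form), were not called in any comparison either. Hsp90aa1 was at 818, 955 and 1063 TPM in the B6 controls and 874, 884 and 889.96 TPM after CRS. In BALB/c it was at 1074, 1057 and 926 TPM in controls and 825, 1077 and 901 TPM after CRS. Hsp90ab1 was at 1036, 1103 and 1177 TPM in the B6 controls and 1065, 1069 and 1149.7 TPM after CRS. BALB/c controls held 1132, 1095 and 1060.4 TPM and stressed BALB/c mice 973, 1177 and 1191 TPM. Both genes overlapped between the groups of each comparison. The 95% interval of the averaged CRS effect was -0.30 to 0.08 for Hsp90aa1 and -0.15 to 0.15 for Hsp90ab1, and that of the strain difference in controls was -0.15 to 0.38 and -0.22 to 0.20. Their reported near-identical pseudogenes were at 1.26 TPM or less for the 4 of Hsp90aa1 and at 0 for the 2 of Hsp90ab1.

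Within a library, Hsp90aa1 stood at 85.3% ± 5.79 (SD, n = 3) of Hsp90ab1 in B6 controls, 80.7% ± 2.88 in B6 CRS, 92.9% ± 4.90 in BALB/c controls and 84.0% ± 7.92 in BALB/c CRS. The averaged CRS effect on the log2 ratio was -0.11 (two-sided exact permutation p = 0.065 over 400 relabellings within strains, adjusted p = 0.72 over 18 tests of ratios). The inducible Hspa1a and Hspa1b together stood at 0.911% ± 0.19 of Hspa8 in B6 controls and 0.946% ± 0.363 in B6 CRS, and at 1.12% ± 0.181 and 1.26% ± 0.257 in the BALB/c groups. With the near-identical copies added to Hspa8, the BALB/c shares were 0.646% ± 0.106 and 0.729% ± 0.123. The strain difference in controls thus went from a log2 value of 0.30 (exact permutation p = 0.2) to -0.49 (exact permutation p = 0.1, the smallest that 3 against 3 allows). Both had an adjusted p of 0.72 over the 18 tests. Under CRS it went from 0.46 (exact permutation p = 0.3) to -0.32 (exact permutation p = 0.5).

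Dnajb1, the J protein that works with inducible Hsp70, was at 30.9, 36.5 and 31.1 TPM in the B6 controls and 27.9, 29.8 and 34.4 TPM after CRS. The BALB/c values were 34.6, 28.1 and 35.2 TPM without and 28.5, 35.6 and 32.0 TPM with CRS. The groups overlapped in every comparison, and the averaged CRS effect had a 95% interval of -0.26 to 0.14. Hspb1, a small heat shock protein that binds unfolded protein without ATP, was at 11.0, 14.5 and 7.11 TPM in the B6 controls and 9.05, 14.4 and 8.88 TPM after CRS. In BALB/c it was at 11.1, 6.96 and 13.1 TPM in controls and 7.39, 10.9 and 11.8 TPM after CRS. Its values spread as widely within groups as between them, and the 95% interval of the averaged CRS effect, -0.45 to 0.43, was wide.

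The related families were read from lists of other genes. Of 8 tested other Hsp70 and Hsp110 genes, 2 other Hsp90 genes, 21 J proteins, 23 co-chaperones of Hsp70 and Hsp90, 5 small heat shock proteins, 10 chaperonin genes and 4 heat shock factors or their regulators, 0 were called after CRS in either strain, in the average or in the difference between strains. The median averaged change ran from -0.04 for the other Hsp90 genes to 0.05 for the small heat shock proteins, where the median over all genes was 0.02. Hsp90b1, Hyou1, Dnajb9, Dnajb11 and Dnajc3 are also on the ER list. Hsf1, the main factor of the heat shock response, was at 27.3 ± 0.28 TPM (SD, n = 3) in B6 controls, 29.7 ± 3.28 in B6 CRS, 26.5 ± 2.59 in BALB/c controls and 29.4 ± 1.65 in BALB/c CRS. Of the 12 immediate early genes, which follow neuronal activity, 0 were called after CRS. Their log2 change was below 0 for 12 of 12 in B6 (range -1.68 to -0.60, median -0.96), for 9 of 12 in BALB/c (median -0.20) and for 12 of 12 in the average (median -0.60). Between strains under CRS 1 of the 12 was called, where 7.7% of all genes were. It was Npas4, higher in BALB/c than in B6 (log2 change 1.30, adjusted p = 0.0171, limma). The difference between the strains in the CRS effect was called for 0 of the 12.

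Between strains, single genes of these lists were lower in BALB/c. In controls 1 of 5 small heat shock proteins and 1 of 24 ER genes were called lower, as were 3.37% of all genes. Under CRS 1 of 5 small heat shock proteins, 1 of 24 ER genes and 2 of 10 chaperonin genes were, against 5.33% of all genes. The other chaperone lists and the heat shock factors had 0 called. Hspb8, a small heat shock protein of chaperone-assisted autophagy, lay at 7.51 to 10.9 TPM over the B6 libraries and at 1.36 to 2.31 TPM over the BALB/c libraries. Its log2 change was -1.95 (SE 0.16, adjusted p = 7.13e-06, limma) in controls and -1.65 (SE 0.16, adjusted p = 3.83e-05) under CRS, and -1.88 and -1.57 with the myelin marker score in the model. Herpud1, an ER membrane protein of protein degradation, changed by -0.45 (adjusted p = 0.0269) in controls and -0.39 (adjusted p = 0.0386) under CRS. Under CRS only were the mitochondrial co-chaperonin Hspe1 (-0.49, adjusted p = 0.00612) and the cytosolic chaperonin subunit Cct3 (-0.42, adjusted p = 0.0401) called; the interaction called neither. The oligodendrocyte and striatal marker sums given above move with strain, and with the myelin score in the model Herpud1, Hspe1 and Cct3 were no longer called. Herpud1 then changed by -0.47 (adjusted p = 0.226, limma) in controls and -0.41 (adjusted p = 0.365) under CRS, and Hspe1 by -0.49 (adjusted p = 0.128), about the same sizes as without the score. Cct3 went to -0.18 (adjusted p = 0.822). Over 23 other settings, single libraries left out included, the call of Hspb8 held in all of them. That of Herpud1 was lost in 6 in controls and in 14 under CRS. The calls under CRS of Hspe1 and Cct3 were lost in 2 (limma, adjusted p up to 0.259) and in 13.

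Most pairs of members deviated from their group means in the same direction, as most pairs of all genes did. After subtracting each group's mean, 41 of the 45 pairs of members had a positive correlation over the 12 libraries, with a median Pearson r of 0.52 and a range of -0.43 to 0.96. That is 91.1% of pairs, against 71.9% of all pairs of the 11192 genes with a mean of at least 5 TPM, whose median r was 0.26. Deviations within a library share its scaling and tissue makeup, so a shared shift of many genes enters each r. Hspa8 entered under its own name, without Gm15459. In BALB/c CRS mice its SD was 4.69 TPM under its own name and 95.1 TPM with Gm15459 added. The 1 pair that passed adjustment over the 45 was Hspa1a with Dnajb1 (r = 0.90, exact permutation p = 0.0008 within groups, the smallest that 1296 arrangements allow, adjusted p = 0.0347; Spearman rho = 0.94, exact permutation p = 0.0008, adjusted p = 0.0347). Without the 2 libraries farthest from the median of Hspa1a, r was 0.89. Hsp90ab1 with Hspa4 had the highest r, 0.96 (exact permutation p = 0.0023, adjusted p = 0.0521; rho = 0.94, exact permutation p = 0.0039, adjusted p = 0.0868), and 0.96 without the 2 farthest libraries. Hspa8 with Hsph1 had r = 0.87 (exact permutation p = 0.0185, adjusted p = 0.119; rho = 0.72, exact permutation p = 0.0309, adjusted p = 0.139), which went to 0.41 without the 2 farthest libraries and so rested on them. The 4 negative pairs all involved Hspb1.

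**Figure D5:**
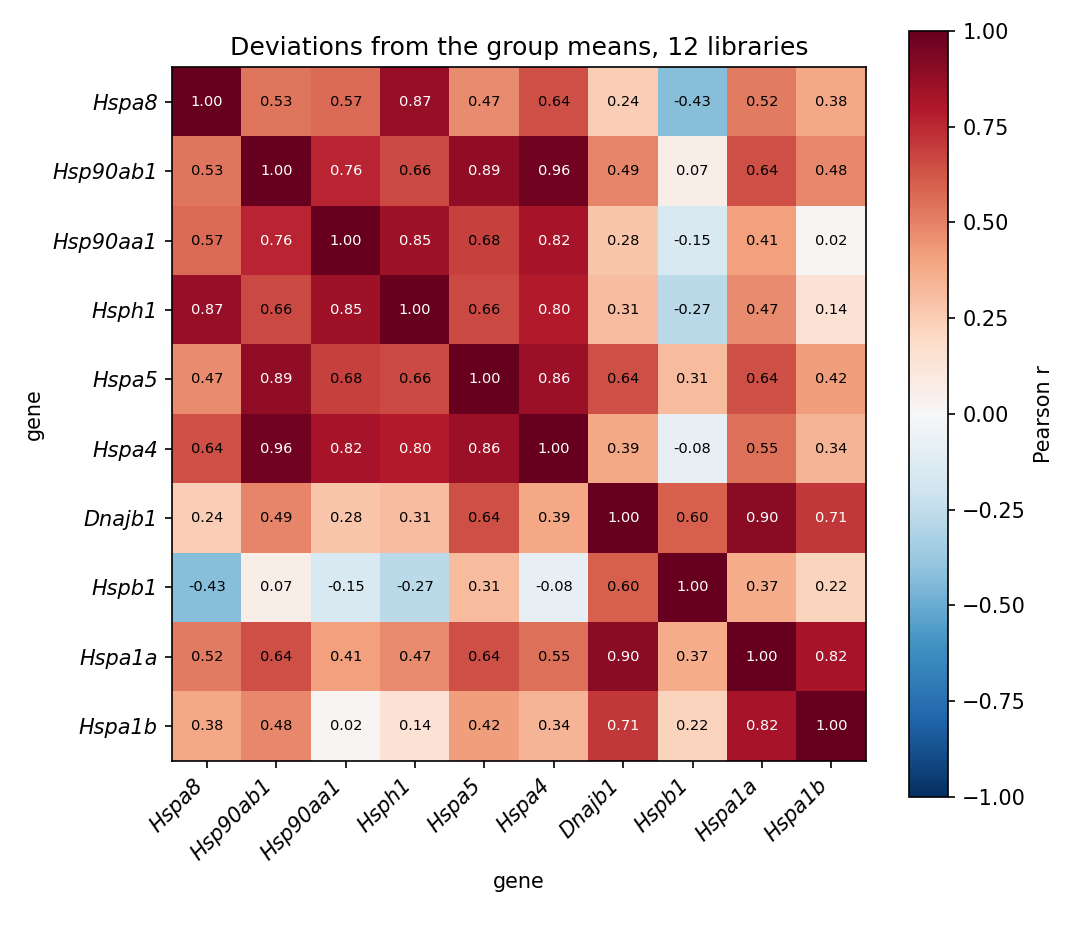
Pearson correlation between chaperone genes of the deviations of log2(TPM + 1) from the group means over 12 libraries. Values run from 0.66 to 0.96 among Hsp90ab1, Hspa4, Hspa5, Hsp90aa1 and Hsph1. Pairs outside this set also reach high values, such as Hspa1a with Dnajb1 (0.90), Hspa8 with Hsph1 (0.87) and Hspa1a with Hspa1b (0.82). Only Hspa1a with Dnajb1 passed adjustment, and Hspb1 holds the 4 negative values.

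Among 10480 other genes with a mean of at least 5 TPM, those named here were among the 2 most like a member in these deviations, given by Pearson r over the 12 libraries as a description. Hspa5 was closest to Tgoln1 (0.99), Hspa8 to Stmn2 and Ccdc32 (both 0.97), and Hsph1 had Chrm3 (0.98) among its 2 closest. For Hspa8, taken under its own name, Spearman rho was lower, 0.79 with Stmn2 and 0.82 with Ccdc32. Hsp90ab1 was closest to Bub3 and Ubap2l (both 0.98), Hsp90aa1 to Tax1bp1 and Tada2a (both 0.96), and Hspa4 to Fbxw2 and Ccpg1 (both 0.98). Hspa1a was closest to Cacfd1 and Phf20 (both 0.97), Hspa1b to Trim62 and Adarb2 (both 0.95), Dnajb1 to Matn2 and Grn (both 0.96), and Hspb1 to Tial1 (0.98) and Xrcc6 (0.97). Of the 10480 genes, 86 were on the chaperone lists. Among the 50 closest genes to a member, 3 were on these lists for Hsp90aa1, 2 for Hsp90ab1 and 1 each for Hspa5 and Hspa4. For Hspa1a, Hspa1b, Hspa8, Hsph1, Hspb1 and Dnajb1 there were 0. The r values are the highest of all 10480, and neither they nor these counts carry a test.

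RefSeq promoter windows (GRCm38.p6, 250 bases before to 50 after each start) matched 7 of the 10 members. The heat shock element was searched on both strands as GAANNTTC, found in 7.86% of 32851 windows of the same length, and as TTCNNGAA, found in 8.52%; the patterns can overlap. The windows of Hspa1a and Hspa1b held the first pattern, each 104 to 97 bases before the start, that of Hspb1 held it at a pair of places, and that of Hsph1 held both patterns. Dnajb1, the partner of Hspa1a in the correlation, had neither in its windows, nor had Hspa4 or Hspa5. The ER stress element, CCAAT and CCACG separated by 9 bases on either strand, stood in 0.119% of windows (39 of them), and among the members in that of Hspa5, 65 to 47 bases before the start. Over 60 bases before each start, capitals mark the matches; the Hspa1b stretch has the same letters as that of Hspa1a.
Hspa1a, chr17:34972227-34972286, minus strand: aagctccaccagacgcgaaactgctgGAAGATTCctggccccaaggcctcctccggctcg
Hspb1, chr5:135887789-135887848, plus strand: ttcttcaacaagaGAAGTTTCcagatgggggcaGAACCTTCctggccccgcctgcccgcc
Hsph1, chr5:149636337-149636396, minus strand: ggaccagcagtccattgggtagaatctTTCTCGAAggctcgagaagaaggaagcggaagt
Hspa5, chr2:34772000-34772059, plus strand: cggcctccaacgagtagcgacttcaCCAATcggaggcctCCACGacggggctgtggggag
A match is a run of letters and no measure of binding.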

How the data were processed

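RNA of 12 mouse medial prefrontal cortex samples was measured with a stranded poly(A) kit as paired 150 bp reads (about 6 Gb each), per the labels' protocols. The submitters' processing notes name cutadapt 2.9, Salmon (version not given) and GRCm38. The authors deposited TPM in 1 table of 147902 rows with gene names only; the unit was read from columns that each sum to 1000000. Depth is unknown, and precision rests on the spread between mice. Rows were summed per gene name. Genes of at least 1 TPM in 3 libraries entered limma 3.58.1 (R 4.3.3) on log2(TPM + 1), with 4 group means, an intensity trend and Benjamini-Hochberg adjustment at 0.05. The fit was tested on simulated data. Near copies were found with blastn 2.17.0 (at least 90% identity over 300 bases, GENCODE M21). Those on a single chromosome are not reported here and entered no sum. Nothing says whether mice shared a litter or batch.

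All members and lists were chosen with earlier results of these data known. Text names all members, called list genes with the largest changes (at most 3 each way), the 2 genes most like each member, and markers; the lower ER genes, Hsf1 and Gm15459 were named after their values were seen. Some genes these rules would name are not reported here. Alternatives covered pseudocount, filter, scaling, marker covariates, blocks, single libraries and, added after seeing the data, near copies and rows.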

Additional observations from a re-analysis of the deposited data

How the results depend on the processing

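Across 23 other settings (pseudocount, filter, scaling, trend, marker covariates, block and each library left out), none of the 1374 recomputed values of members crossed the threshold of the test, and 145 values that were not called changed sign. The lower Hspa8 of BALB/c stayed called in all of them, at -0.90 to -0.61 in controls and -1.03 to -0.62 under CRS. With members summed with their near-identical copies, an alternative chosen after seeing the data, 0 members were called in either strain comparison and Hspa8 turned to 0.049 in controls and 0.088 under CRS. Hspa5 after CRS, averaged over strains, stayed between -0.29 and -0.20, with adjusted p of 0.28 to 1.00.

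Counts over all genes moved more. Of all genes, 777 were called between strains in controls, against 286 with the myelin covariate and 428 to 1389 with 1 library left out, the most without B6 control 9. Under CRS 1264 were called, against 237 with the striatal covariate, 252 with the myelin covariate and 539 (without B6 CRS mouse 12) to 1852 (without B6 control 9) with 1 library left out. A filter at a mean of 5 TPM, which tests fewer genes, gave 437 and 702. With median-of-ratios scaling, which moved the median gene in controls from -0.10 to 0.01, the share of lower calls went from 71.2% to 53.1% in controls and from 69.2% to 53.8% under CRS. The cause of these shifts was not tested.

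Animal numbers shared between strains (9, 12 and 13) belong to different mice, and their deviations correlated at -0.24, -0.03 and -0.04. With no such value for other pairs of mice, these cannot tell whether mice of the same number shared a batch. A fit with the replicate number as a block called 0 members in each CRS comparison, 1 member (Hspa8) in each strain comparison, and 565 and 750 genes in all between strains.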
